A study of Homo sapiens with 4 samples.

Results

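Long intergenic noncoding RNAs (LINC), antisense and intronic transcripts, snoRNA host genes (SNHG) and small Cajal body RNAs (SCARNA) were followed through their gene names. Members were genes whose symbol starts with LINC, SNHG, SNORA, SNORD or SCARNA, or ends in -AS1, -AS2 or -IT1, and whose mean over all 4 arrays was at least 5 on the log2 scale. Of 14884 named genes, 979 had such a name and 258 of these reached the floor. The 258 comprised 68 of 459 LINC genes, 8 of 9 SNHG genes, 21 of 23 SCARNA genes, and 161 of 488 antisense or intronic genes (151 -AS1, 5 -AS2 and 5 -IT1). No probe set named SNORA or SNORD was in the annotation used here, so the snoRNAs of the nucleolus were not analysed here. Members were thus chosen by their name and by their mean level over the 4 arrays, and those levels are given as a description. All 258 passed the filter on dim genes, while of the 721 genes under the floor 311 were tested and 410 were left out as dim.

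SH-SY5Y cells, an established human neuroblastoma line of sympathetic lineage, received origamicin at 30 µM or its solvent methanol (mock), each for 24 h. The submitters describe origamicin as an inhibitor of protein disulfide isomerase, the enzyme that forms and rearranges disulfide bonds in the endoplasmic reticulum. RNA of 2 origamicin and 2 mock samples was hybridised to Affymetrix Human Gene 2.0 ST arrays, and the deposited values are log2 expression. The labels say biological replicate and nothing of passages or days, so each p-value reflects only how far these samples spread, which may be technical.

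Long noncoding RNAs are transcripts without a known protein product, and some act on chromatin, on splicing or on neighbouring genes. Antisense transcripts lie on the opposite strand of a protein-coding gene or start beside it, and -IT transcripts arise from introns. SNHG genes carry snoRNAs in their introns, and scaRNAs, most of them also cut from introns, guide the chemical modification of the small nuclear RNAs of the spliceosome. The silica columns used for these samples recover short RNAs poorly, and which strand or which form (a host intron or the mature scaRNA) each probe set reads is not given in the sources used here.

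Promoter windows are shown for the 4 antisense members that passed the intensity-trend fit described below and for LINC00473, the LINC member with the smallest p, since the results turn on them. Each runs from 250 bases before to 50 bases after the annotated start (RefSeq, GRCh38.p14). Capitals mark TGACG or its reverse complement CGTCA, the core of the cyclic AMP response element bound by CREB, and CACGTG, the E-box bound by MYC and related factors. The windows are chr21:44516965-44517264 on the plus strand for TSPEAR-AS2, chr9:2622324-2622623 on the minus strand for VLDLR-AS1, chr21:32392883-32393182 on the plus strand for URB1-AS1, chr6:165987990-165988289 on the minus strand for LINC00473 and chr1:111739591-111739890 on the plus strand for INKA2-AS1.
TSPEAR-AS2: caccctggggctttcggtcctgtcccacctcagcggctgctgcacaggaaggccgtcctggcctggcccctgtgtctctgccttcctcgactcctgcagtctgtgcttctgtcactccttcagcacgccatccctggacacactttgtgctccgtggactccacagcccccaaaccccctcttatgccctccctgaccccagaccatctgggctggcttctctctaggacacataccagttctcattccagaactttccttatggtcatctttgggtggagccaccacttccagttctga
VLDLR-AS1: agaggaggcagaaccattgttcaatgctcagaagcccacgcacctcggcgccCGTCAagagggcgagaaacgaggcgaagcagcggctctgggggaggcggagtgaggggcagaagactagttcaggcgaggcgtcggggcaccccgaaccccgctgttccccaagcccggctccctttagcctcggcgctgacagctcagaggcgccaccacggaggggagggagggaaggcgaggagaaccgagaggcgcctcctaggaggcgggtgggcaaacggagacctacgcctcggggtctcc
URB1-AS1: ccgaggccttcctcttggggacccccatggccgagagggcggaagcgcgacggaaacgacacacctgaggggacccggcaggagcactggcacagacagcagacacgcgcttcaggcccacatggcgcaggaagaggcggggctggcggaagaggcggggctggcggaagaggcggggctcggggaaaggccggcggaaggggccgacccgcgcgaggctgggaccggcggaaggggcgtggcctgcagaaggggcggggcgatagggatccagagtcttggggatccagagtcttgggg
LINC00473: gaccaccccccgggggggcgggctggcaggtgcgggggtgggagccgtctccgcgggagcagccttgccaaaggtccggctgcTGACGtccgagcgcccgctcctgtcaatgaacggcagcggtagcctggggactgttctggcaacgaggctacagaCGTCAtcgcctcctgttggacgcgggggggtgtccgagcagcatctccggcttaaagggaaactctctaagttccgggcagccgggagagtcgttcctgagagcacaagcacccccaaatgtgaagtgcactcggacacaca
INKA2-AS1: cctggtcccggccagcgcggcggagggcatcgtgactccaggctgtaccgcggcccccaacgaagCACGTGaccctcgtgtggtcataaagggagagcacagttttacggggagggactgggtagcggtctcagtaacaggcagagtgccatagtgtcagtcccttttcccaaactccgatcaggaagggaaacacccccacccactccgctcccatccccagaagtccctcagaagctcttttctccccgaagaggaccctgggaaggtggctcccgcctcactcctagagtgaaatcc
LINC00473, known as a transcript induced through CREB, held the core element 2 times, VLDLR-AS1 held it 1 time and INKA2-AS1 held 1 E-box. The windows of TSPEAR-AS2 and URB1-AS1 held none of these letters, nor the AP-1 site TGANTCA. The URB1-AS1 window shares 220 of its 300 bases with the window of URB1 on the other strand, whereas those of VLDLR-AS1 and VLDLR share 0.

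Over the 11883 genes tested, limma with Benjamini-Hochberg adjustment called 0 genes at an adjusted p of 0.05 (0% of genes), and it called 0 of the 258 members. At an unadjusted p of 0.05 it called 43 members (16.7%), 21 higher and 22 lower in origamicin, where 16.4% of all genes tested passed (7.99% higher and 8.42% lower). The share of members is close to that of all genes, and it is also close to the 17.4% among tested genes with a mean of at least 5. Without mock replicate 1 the number higher was 13. With an intensity trend in eBayes, 9 members passed an adjusted p of 0.05, 6 higher and 3 lower, which is 3.49% of members against 4.3% of all genes tested (2.14% higher and 2.16% lower) and 5.47% of those with a mean of at least 5. The origamicin and mock arrays did not overlap in 126 members (48.8%), 52 higher (20.2%) and 74 lower (28.7%). The share was 48.6% of all genes tested (22.7% higher and 25.8% lower). It was 53% of those with a mean of at least 5 (24.2% higher and 28.8% lower). The median log2 change was -0.02 over the members and -0.01 over all genes tested. Levels below are log2 expression per array, and each change is the log2 difference, origamicin minus mock, ± its moderated standard error (SE) over 2 arrays per group. In RNA from whole cultures, fewer cells of a kind and less RNA per cell cannot be told apart.

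**Figure D1:**
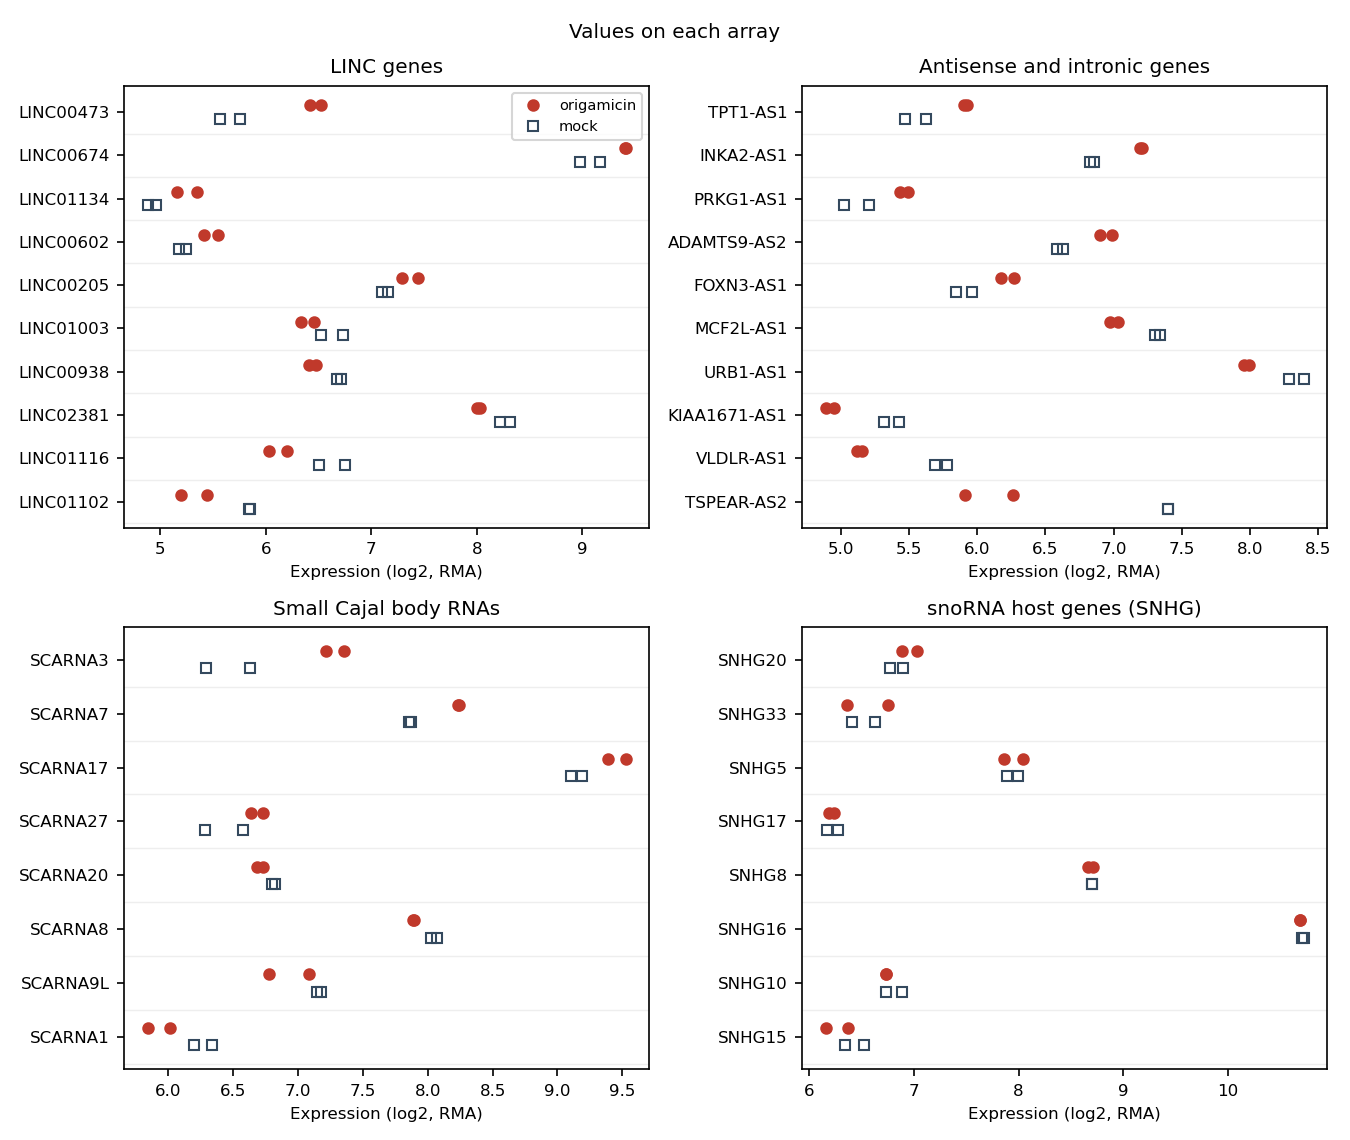
Log2 expression (x axis) on each array for the members of each class with the smallest p, and for all SNHG members. Each filled circle is 1 origamicin array and each open square 1 mock array, drawn just under it. TSPEAR-AS2 lies at 5.91 and 6.26 on the origamicin arrays and at 7.40 and 7.40 on the mock arrays.

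TSPEAR-AS2, an antisense transcript of the chromosome 21 gene TSPEAR, had the smallest p of all members. Its levels were 5.91 and 6.26 on the origamicin arrays, against 7.40 and 7.40 on the mock arrays. Both origamicin arrays were low, and they differed from each other more than the mock arrays did. The difference was -1.32 ± 0.13, or 2.49-fold lower in origamicin, with an adjusted p of 0.0953 in limma and 0.00374 with an intensity trend. It was the only member under an adjusted p of 0.1, a threshold passed by 0.446% of all genes tested. TSPEAR itself, a gene linked to tooth and hair development, had 5.08 and 4.92 in origamicin, against 5.30 and 5.18 in mock (-0.24 ± 0.09, limma adjusted p = 0.314). Its groups did not overlap either, at a smaller distance than those of TSPEAR-AS2.

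VLDLR-AS1 lies beside VLDLR, the receptor for apolipoprotein E-bearing lipoproteins and for reelin. VLDLR-AS1 had 5.16 and 5.11 in origamicin, against 5.78 and 5.69 in mock, a difference of -0.60 ± 0.07 (limma adjusted p = 0.104, and 0.0363 with an intensity trend). VLDLR had 7.81 and 7.73 in origamicin, against 8.26 and 8.22 in mock, a difference of -0.47 ± 0.07 (limma adjusted p = 0.149, and 0.0131 with an intensity trend). Both transcripts stood lower on both origamicin arrays. A second VLDLR-AS1 probe set, under the floor at a mean of 4.18, differed by -0.47, in the same direction.

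URB1-AS1 starts close to URB1, a ribosome biogenesis factor gene. Its levels were 7.96 and 7.995 in origamicin, against 8.40 and 8.29 in mock (-0.36 ± 0.07, limma adjusted p = 0.174, and 0.0244 with an intensity trend). URB1 had 7.30 and 7.36 in origamicin, against 7.48 and 7.52 in mock, a difference of -0.17 ± 0.07. For both the origamicin arrays lay under the mock arrays. KIAA1671-AS1 (-0.45 ± 0.07) and MCF2L-AS1 (-0.32 ± 0.06), the other antisense genes among the 5 lower ones with the smallest p, did not pass with an intensity trend. Their sense genes KIAA1671 and MCF2L differed by 0.10 and 0.08.

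Among antisense genes higher in origamicin, INKA2-AS1 had 7.20 and 7.21 in origamicin, against 6.86 and 6.83 in mock. The arrays of a group lay within a few hundredths of each other, and the groups were 0.36 ± 0.06 apart (limma adjusted p = 0.168, and 0.04 with an intensity trend). ADAMTS9-AS2 (0.34 ± 0.07), TPT1-AS1 (0.36 ± 0.08), FOXN3-AS1 (0.32 ± 0.08) and PRKG1-AS1 (0.35 ± 0.09) followed by p, and none of these 4 passed with an intensity trend. FOXN3, a forkhead repressor gene, differed by 0.08.

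In the whole antisense and intronic class, 30 of 161 members had an unadjusted p under 0.05, 13 higher and 17 lower (18.6%, against 16.4% of all genes tested), and 4 passed with an intensity trend (2.48%, against 4.3%). The median change was -0.05, with 59 members above and 102 below 0. The share below 0 was 63.4%, against 52.1% of all genes tested and 53.4% of those with a mean of at least 5. By suffix, the median was -0.05 for the 151 -AS1 genes, -0.26 for the 5 -AS2 genes and 0.09 for the 5 -IT1 genes. The groups did not overlap in 81 members of the class, 28 higher (17.4%, against 22.7% of all genes tested) and 53 lower (32.9%, against 25.8%). Among tested genes with a mean of at least 5, these shares were 24.2% higher and 28.8% lower. Members with an unadjusted p under 0.05 outside the 10 leading ones ran between 0.18 and 0.31 on the higher side and between -0.57 and -0.21 on the lower side. The largest differences among these, named after their values were seen, were those of GABPB1-IT1 (-0.57 ± 0.14) and ZNF674-AS1 (-0.53 ± 0.12).

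HAND2-AS1, the brightest antisense probe set, shares its locus with HAND2, a transcription factor of sympathetic neuroblasts. It had 9.55 and 9.65 in origamicin, against 9.73 and 9.81 in mock (-0.16 ± 0.07, limma adjusted p = 0.374), and HAND2 differed by 0.04 ± 0.07. PITPNA-AS1 and FGD5-AS1, next in brightness, differed by -0.04 and -0.03. Nearest the floor among -AS1 genes, ZNF205-AS1 (mean 5.01) and PAXBP1-AS1 (5.05) were inside, and LOXL2-AS1 and UMODL1-AS1 (4.997 each) outside. Among -AS2 genes, FGF14-AS2 (5.41) and ZNF503-AS2 (5.44) were inside, and PAXIP1-AS2 (4.85) and HOXD-AS2 (4.83) outside. Among -IT1 genes, AGPAT4-IT1 (5.04) and FGF14-IT1 (5.07) were inside, and MAPT-IT1 (4.87) and BIN3-IT1 (4.78) outside.

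**Figure D2:**
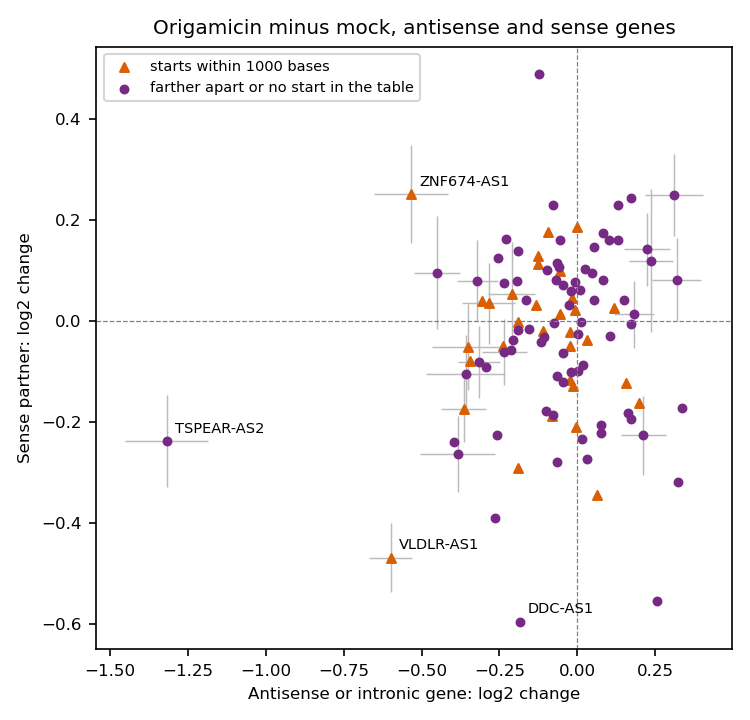
Log2 change, origamicin minus mock, of antisense or intronic members against that of the gene they are named for, 1 point per pair, 108 pairs. Bars are standard errors, drawn for members with an unadjusted p under 0.05, and triangles mark pairs whose starts lie within 1000 bases. The 57 pairs with the same sign lie below 0 or above 0 on both axes, among them VLDLR-AS1 with VLDLR.

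For 108 of the 161 antisense and intronic members, the gene they are named for was also tested. The pair differed in the same direction in 57 (52.8%), and the correlation of the changes across pairs was 0.113 (Pearson) and 0.078 (Spearman), a description over genes measured on the same 4 arrays. Where the annotated starts lie within 1000 bases, 16 of 32 pairs had the same direction. An unadjusted p of 0.05 was passed by 19 of the 108 antisense members and 16 of the 107 different sense genes. Of all genes tested, 16.4% passed. Both genes passed in 4 pairs. Besides VLDLR-AS1 and VLDLR these were SERTAD4-AS1 and SERTAD4 (0.31 and 0.25), PTOV1-AS1 and PTOV1 (-0.38 and -0.26), and, in opposite directions, FGF14-IT1 and FGF14 (0.21 and -0.23). FGF14 encodes an intracellular partner of neuronal sodium channels. Without strand information for the probe sets, signal of a transcript and of its antisense partner may be mixed where they overlap.

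Pairs with unlike values, chosen after they were seen, included ZNF674-AS1 and ZNF674. ZNF674-AS1 had 5.41 and 5.54 in origamicin, against 5.87 and 6.14 in mock. ZNF674, a zinc finger gene, had 5.63 and 5.74 in origamicin, against 5.34 and 5.54 in mock (0.25 ± 0.10). The antisense transcript stood lower and the sense gene higher in origamicin, with no overlap in either. DDC, the aromatic amino acid decarboxylase of catecholamine synthesis, differed by -0.59 ± 0.06, against -0.18 ± 0.07 for DDC-AS1. RNF213, a ubiquitin ligase gene, differed by 0.49 ± 0.07, while RNF213-AS1 differed by -0.12 ± 0.19, with a standard error larger than its difference.

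LINC00473 had the smallest p among the 68 LINC members. It had 6.52 and 6.42 in origamicin, against 5.76 and 5.57 in mock, and both origamicin arrays lay above both mock arrays. The difference was 0.80 ± 0.09, or 1.75-fold higher in origamicin (limma adjusted p = 0.104, and 0.015 with an intensity trend). In RefSeq its span lies within that of PDE10A, a cyclic nucleotide phosphodiesterase gene, and LINC00473 is also listed there as a synonym of PDE10A. PDE10A has no named probe set here, so signal of the 2 genes could not be compared. LINC00602, whose span overlaps those of both, was also higher in origamicin, by 0.27 ± 0.08.

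LINC00674 had 9.41 and 9.40 in origamicin, against 8.98 and 9.16 in mock (0.34 ± 0.09, limma adjusted p = 0.212, and 0.043 with an intensity trend). Its dimmer second probe set differed by only 0.03. LINC01134 (0.33 ± 0.09) and LINC00205 (0.24 ± 0.08) completed the 5 higher members with the smallest p. Of the coding genes that overlap or flank the 13 LINC genes named here, 13 were tested, and their changes ran from -0.59 to 0.24. Among these 13, only AJAP1 and HOXC4, named after their values were seen, had an unadjusted p under 0.05. Of all genes tested, 16.4% did. AJAP1, on 1 side of LINC01134, differed in the other direction by -0.59 ± 0.13 (limma adjusted p = 0.18), and C1orf174 on the other side by -0.09 ± 0.06.

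On the lower side, LINC01102 had 5.20 and 5.45 in origamicin, against 5.84 and 5.85 in mock (-0.52 ± 0.10). LINC01116 had 6.03 and 6.20 in origamicin, against 6.51 and 6.75 in mock (-0.51 ± 0.12). The groups did not overlap in either, and neither passed with an intensity trend. LINC00938 (-0.25 ± 0.07), LINC02381 (-0.25 ± 0.07) and LINC01003 (-0.23 ± 0.10) followed. HOXC4, a homeobox gene on 1 side of LINC02381, differed by -0.31 ± 0.09, in the same direction as LINC02381, and SMUG1, a DNA repair gene on the other side, differed by 0.04 ± 0.07. POU3F3, a neural transcription factor gene beside LINC01102, differed by 0.24 ± 0.13, opposite in sign to LINC01102.

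Of the 68 LINC members, 9 had an unadjusted p under 0.05, 5 higher and 4 lower (13.2%, against 16.4% of all genes tested), and 2 passed with an intensity trend (2.94%, against 4.3%). Their median change was 0.02, with 38 above and 30 below 0, and the range was -0.52 to 0.80. Without mock replicate 2 the median was -0.02. The brightest 3, LINC00987, LINC01347 and LINC01000, differed by -0.12, 0.11 and 0.05. LINC00622, named after its values were seen, had a difference of 0.57 ± 0.28 with overlapping groups, 5.27 and 5.82 in origamicin against 4.67 and 5.28 in mock. LINC01623 (mean 5.02) and LINC01004 (5.03) were just inside the floor, and LINC01107 and LINC01124 (4.99 each) just outside.

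**Figure D3:**
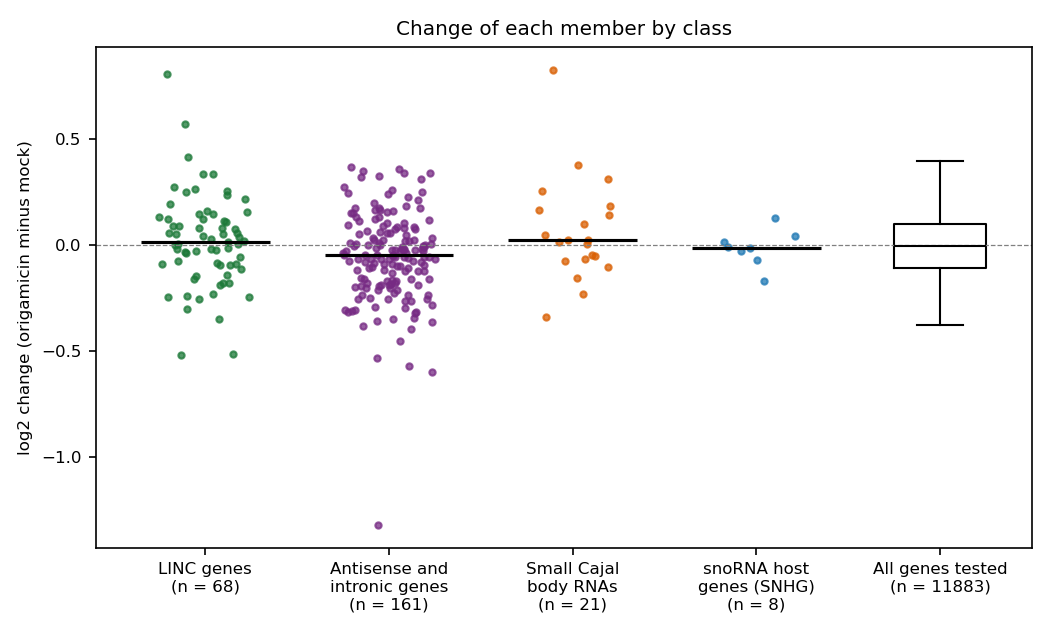
Log2 change, origamicin minus mock, of every member by class, 1 point per gene, with the class median as a line and a box (quartiles, with whiskers over the central 95%) for all 11883 genes tested. LINC spans -0.52 to 0.80, SCARNA -0.34 to 0.82 and SNHG only -0.17 to 0.12.

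Among scaRNAs, SCARNA3 had 7.22 and 7.35 in origamicin, against 6.29 and 6.63 in mock. The difference of 0.82 ± 0.14, or 1.77-fold higher in origamicin, exceeded the spread within either group (limma adjusted p = 0.157, and 0.0175 with an intensity trend). SCARNA7, also called U90, had 8.23 and 8.24 in origamicin, against 7.87 and 7.86 in mock (0.38 ± 0.06, limma adjusted p = 0.157, and 0.0163 with an intensity trend). SCARNA17, also called U91, had 9.53 and 9.39 in origamicin, against 9.19 and 9.11 in mock (0.31 ± 0.08, limma adjusted p = 0.208, and 0.04 with an intensity trend). In all 3 both origamicin arrays lay above both mock arrays.

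SCARNA1 stood lower, at 5.84 and 6.01 in origamicin, against 6.33 and 6.20 in mock (-0.34 ± 0.09), and did not pass with an intensity trend. SCARNA27 (0.26 ± 0.12), SCARNA8 (-0.15 ± 0.06), SCARNA9L (-0.23 ± 0.12) and SCARNA20 (-0.10 ± 0.06) had an unadjusted p above 0.05. SCARNA9L is a near-copy of SCARNA9, and signal of the pair may be shared. SCARNA9 differed by 0.18, opposite in sign to SCARNA9L. The brightest scaRNA probe sets were those of SCARNA12, SCARNA22 and SCARNA10. Over the class, 4 of 21 had an unadjusted p under 0.05, 3 higher and 1 lower (19.05%, against 16.4% of all genes tested). With an intensity trend 3 passed (14.3%, against 4.3%). The median change was 0.02, with 13 above and 8 below 0.

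In RefSeq, 20 of the 21 scaRNAs lie within the span of another gene, and for 11 of them that gene was tested (10 genes). Such a gene is called a host here by position alone, without comparing strands. The hosts' changes ran from -0.10 to 0.19, and 6 of the 11 scaRNAs had the sign of their host. KPNA4, an importin gene and the host of SCARNA7, differed by 0.04 ± 0.08, against 0.38 ± 0.06 for SCARNA7. ATG16L1, an autophagy gene that hosts SCARNA5 and SCARNA6, was the only host with an unadjusted p under 0.05 (0.19 ± 0.06). The hosts of SCARNA3 (COP1) and SCARNA17 (SNHG22) have no named probe set and were not analysed here. SCARNA23 (mean 5.03) and SCARNA18 (5.74) were nearest the floor from inside, and SCARNA14 (4.46) and SCARNA15 (4.09) were outside.

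None of the 8 SNHG members had an unadjusted limma p under 0.05 or passed with an intensity trend, against 16.4% and 4.3% of all genes tested. SNHG16, also called ncRAN and known from aggressive neuroblastoma, had 10.68 and 10.68 in origamicin, against 10.72 and 10.70 in mock. Its difference of -0.03 ± 0.06 has a 95% interval from -0.19 to 0.14, which holds shifts of either direction. SNHG15 (-0.17 ± 0.11) and SNHG20 (0.12 ± 0.09) had the widest differences, and SNHG10 (-0.07), SNHG8 (-0.02), SNHG33 (0.04), SNHG17 (-0.01) and SNHG5 (0.01) lay between them. The groups did not overlap in 1 of the 8 (12.5%, against 48.6% of all genes tested). SNHG17 (mean 6.22) and SNHG15 (6.35) were nearest the floor from inside, and SNHG18 (3.49) was the 1 outside.

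**Figure D4:**
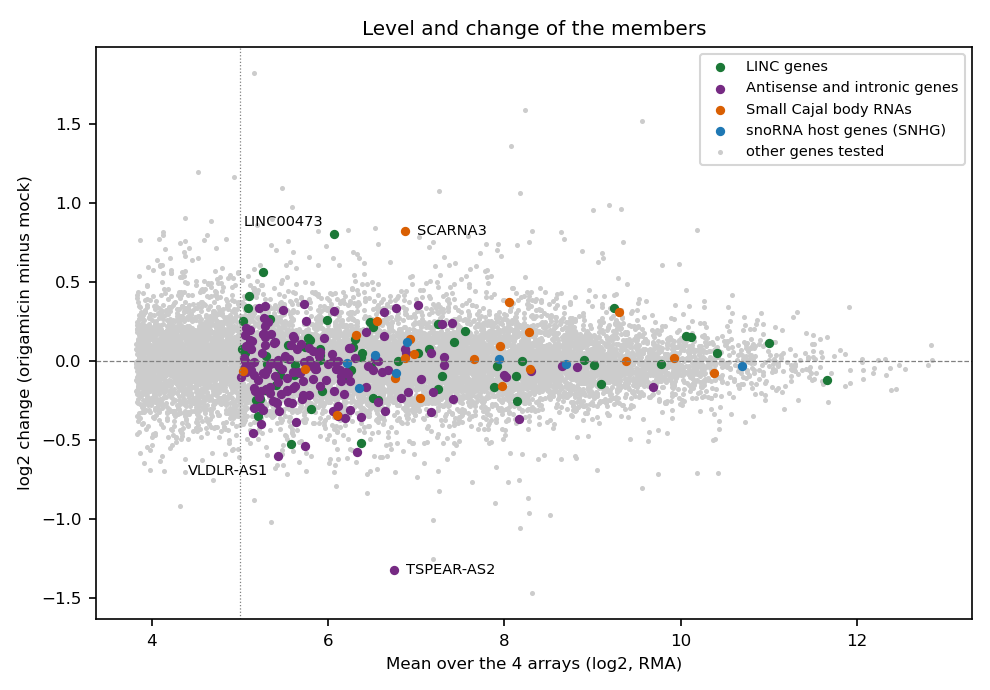
Log2 change, origamicin minus mock (y axis), against the mean log2 expression over the 4 arrays (x axis) of each member, coloured by class, with the other genes tested in grey and a dotted line at the floor of 5. TSPEAR-AS2 (-1.32), LINC00473 (0.80) and SCARNA3 (0.82) are the members furthest from 0, all at means between 6.07 and 6.87.

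Of the 35 members with several probe sets, 22 had all of them on the same side of 0. Probe sets disagreed in 2 members with an unadjusted p under 0.05: C10orf95-AS1 (-0.31 and 0.33) and PDCD4-AS1 (-0.36 and 0.11). The second probe set of each was under the floor, at means of 4.21 and 1.84.

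Of 198 members with a promoter window, 34.3% held TGACG on either strand, against 25% of 27305 promoters of the same length. Those 27305 promoters were not matched to the members in level or base composition. The E-box CACGTG was in 9.09% of member windows, against 7.43% of all, and TGANTCA was in 8.08% against 7.76%. Among members with an unadjusted p under 0.05, TGACG was in 6 of 14 windows of those higher and 6 of 18 of those lower. The E-box was in 3 of 14 and 2 of 18, and TGANTCA in 2 of 14 and 0 of 18. These matches are counts of letters in a window, and the motifs were chosen with results of these arrays known.

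A further 37 long noncoding RNAs were listed for comparison. All but LINC-PINT have names outside the rule, and LINC-PINT was under the floor with a mean of 4.37. Of the 19 tested, 3 were higher and 1 lower at an unadjusted p of 0.05, against 7.99% and 8.42% of all genes tested, and the median change was 0.06. MIAT had 5.45 and 5.61 in origamicin, against 4.85 and 4.98 in mock (0.61 ± 0.09, limma adjusted p = 0.156, and 0.0497 with an intensity trend). CYTOR (0.33 ± 0.07) and PURPL, a p53-induced transcript (0.56 ± 0.15), also stood higher in origamicin. PURPL was under the floor used for members, with a mean of 4.12, as were MIR22HG (4.63) and KCNQ1OT1 (4.62). MIR210HG, the host of the hypoxia-induced miR-210, stood lower (-0.36 ± 0.07). The others were under 0.2 in size: CRNDE (-0.19), MALAT1 of nuclear speckles (0.17), the RNase P RNA RPPH1 (0.17), DANCR (0.16), LINC-PINT (0.15), MIR22HG (0.15), MIR17HG (0.12), and the snoRNA hosts GAS5 (0.06) and ZFAS1 (-0.02). NORAD (0.03), KCNQ1OT1 (0.02), RMRP (-0.02), and NBAT1 (-0.05), CASC15 and TERC, the telomerase RNA, were also within this range.

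Proteins that make or remove these RNAs were listed as well. Of 14 tested genes of the nuclear exosome and RNA turnover (17 listed), 0 were higher and 2 lower at an unadjusted p of 0.05. Of all genes tested, 7.99% were higher and 8.42% lower at that p. In this list 13 had a negative change, against 52.1% of all genes tested. The median was -0.11, against -0.01 over all genes tested. EXOSC5, an exosome core subunit (-0.36 ± 0.06, limma adjusted p = 0.168, and 0.0106 with an intensity trend), and XRN2, the nuclear 5′ exonuclease (-0.25 ± 0.08), had an unadjusted p under 0.05, and EXOSC10 differed by 0.16. Of 9 tested box C/D snoRNP genes, only RUVBL2, an assembly ATPase (-0.30 ± 0.07), had an unadjusted p under 0.05. Of all genes tested, 16.4% did. PIH1D1 differed by -0.17 and FBL, the methyltransferase, by 0.04. None of 8 box H/ACA genes passed, with NHP2 at -0.16, NOP10 at -0.11, PARN at 0.10 and COIL at 0.05. None of 6 nonsense-mediated decay genes passed, with UPF1 at 0.18, UPF2 at 0.13, EIF4A3 at -0.10 and MAGOHB at -0.08. RNA polymerase I factors (3 tested) and other snoRNA hosts (6 tested) also had none, with NCL at -0.05, POLR1F at -0.05, RRN3 at 0.03, EP400 at 0.13, EEF2 at 0.10 and WDR43 at -0.05. The lists are short, and whether their counts differ from the share of all genes was not tested.

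Markers of noradrenergic neuroblastoma cells (14 of 17 tested) had a mean level of 9.33 and 9.35 in origamicin, against 9.54 and 9.59 in mock. At an unadjusted p of 0.05, 1 was higher and 7 were lower, against 7.99% and 8.42% of all genes tested. CHGB, a protein of secretory granules, had 7.19 and 7.31 in origamicin, against 7.96 and 8.05 in mock (-0.76 ± 0.08), and DDC, given above, was next by p. On the other side INSM1, a neuroendocrine transcription factor, had 5.67 and 5.62 in origamicin, against 5.14 and 5.45 in mock (0.35 ± 0.12), and HAND2 followed. TH, the tyrosine hydroxylase of catecholamine synthesis, had a mean of 5.67 and differed by -0.01 ± 0.12, and is named after its values were seen. Mesenchymal-type markers (9 of 12 tested) averaged 6.85 and 6.72 in origamicin, against 6.61 and 6.57 in mock, and 3 were higher and 0 lower at an unadjusted p of 0.05, against 7.99% and 8.42% of all genes tested. VIM, the filament protein vimentin (0.45 ± 0.07), and FN1, the matrix protein fibronectin (0.37 ± 0.08), had the smallest p, and TWIST1, the 1 negative, differed by -0.05 ± 0.07. Glial and Schwann markers (5 of 8 tested) averaged 4.73 and 4.83 in origamicin, against 4.68 and 4.77 in mock. At an unadjusted p of 0.05 limma called 0 of them, against 16.4% of all genes tested. GFAP (0.23 ± 0.16), ERBB3 (0.16 ± 0.12), FOXD3 (-0.18 ± 0.12) and S100B (-0.03 ± 0.17) were those with the smallest p on each side. The part of these shifts in the values of the noncoding genes was not tested.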

How the data were processed

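Total RNA from column purification (400 ng per sample) was labelled and hybridised, per the labels' protocols. The authors deposited log2 expression for each probe set. RMA, which corrects background, normalizes and summarises probes, and limma stand in the submitters' processing notes, with no version. Which genome build they used is not given in the sources used here. Deposited log2 values lay between 0.574 and 14.5 and array medians between 4.37 and 4.42, and no further normalization was applied. The number of arrays (2 per group) limits the precision.

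Of 53617 probe sets, 16098 carried 1 gene name and 37519 are unnamed here. The brightest probe set of each of 14884 genes was kept, and 3001 genes with a mean under the 40th percentile of all probe sets (3.82) were left out as dim, leaving 11883. Groups came from the sample titles. The difference origamicin minus mock was tested two-sided in limma (version 3.58.1, R 4.3.3) by lmFit and eBayes, using 1 prior variance for all genes and no covariate, with Benjamini-Hochberg adjustment over all 11883 genes. The fit was tested on simulated data. Names, neighbours and promoter windows are from RefSeq (GRCh38.p14), which matched all 258 members.

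The members, lists, motifs and tests were chosen with earlier results of these data known. Named genes were the 5 with the smallest p on each side among LINC and antisense members, 4 on each side among scaRNAs, all SNHG members, the 3 brightest of a class, those next to the floor, sense partners, scaRNA hosts, and from each list the 2 with the smallest p on each side (all long noncoding RNAs with a value). Other genes, coding neighbours among them, fall outside this rule and were chosen with their values known.

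Arrays of a group correlated at 0.994 (origamicin) and 0.995 (mock), and arrays of different groups at 0.991 to 0.992. Same-numbered replicates did not deviate together (correlation -0.023). Alternatives were a replicate block, other filters, scalings, eBayes settings, floors, thresholds and probe set rules, and leaving out each array.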

Additional observations from a re-analysis of the deposited data

How the results depend on the processing

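With 2 arrays per group and moderated degrees of freedom of 4.45, small changes could not be told from replicate spread, and dim probe sets sit near background. The number of members past an adjusted p of 0.05 was 0 in limma, 9 with an intensity trend, 3 with a filter at the 60th percentile (TSPEAR-AS2, VLDLR-AS1 and LINC00473) and 1 at an adjusted p of 0.1. Members higher in origamicin at an unadjusted p of 0.05 numbered 21, against 11 with all probe sets fitted, 13 and 41 with a floor of 6 and 4, and 6 at a p of 0.01. Members lower in origamicin numbered 22, against 12 with all probe sets fitted, 37 with a floor of 4, and 10 at a p of 0.01. Leaving out 1 array gave 13 to 18 higher and 19 to 26 lower, and 0 past an adjusted p of 0.05. The replicate block gave 20 higher and 27 lower, and 0 past an adjusted p of 0.05. The labels do not say whether the replicate numbers pair the samples. Of the 43 members with an unadjusted p under 0.05, 38 were still under 0.05 with the block. Their signs could not turn, since a balanced block leaves each difference as it was. Fewer samples or other genes tested alter these counts by construction, and other causes were not tested. The class medians, leaving out 1 array, ran from -0.0248 to 0.0249 for LINC, from -0.0469 to -0.0043 for SNHG, from -0.0677 to -0.0477 for antisense and intronic genes and from 0.0278 to 0.0481 for SCARNA. Equal array medians gave -0.0008 for LINC, -0.03 for SNHG and -0.0636 for antisense and intronic genes, and moved the median of all genes to -0.0234. The SNHG median was -0.0074 with cyclic loess and -0.0062 with quantile normalization, and the antisense and intronic median was -0.0624 with a floor of 6. Over 121 named genes and 1202 values from alternatives that keep all arrays, 3 turned sign: SNHG5 (-0.0038) and SCARNA10 (-0.0143) with equal array medians, and KCNQ1OT1 (-0.0031) with quantile normalization. Among these alternatives, other filters, eBayes settings and the replicate block leave each change itself unaltered, so they could not turn a sign. None of the 55 named genes with a change of at least 0.2 turned sign in any setting run. Many of these have groups that do not overlap, and leaving out 1 array cannot turn the sign of such a gene. For those genes this outcome was fixed in advance. Leaving out 1 array turned the sign of 29 genes, with ranges as follows. SNHG10 (-0.15 to 0.0051), SNHG8 (-0.039 to 0.006), SNHG33 (-0.15 to 0.23), SNHG17 (-0.061 to 0.040), SNHG5 (-0.079 to 0.10), SCARNA12 (-0.21 to 0.067), SCARNA22 (-0.017 to 0.063), SCARNA10 (-0.024 to 0.028), PITPNA-AS1 (-0.14 to 0.066) and KIAA1671 (-0.041 to 0.23). The ranges continued with RNF213-AS1 (-0.37 to 0.12), HAND2 (-0.012 to 0.095), KPNA4 (-0.025 to 0.11), GAS5 (-0.016 to 0.13), ZFAS1 (-0.13 to 0.099), NBAT1 (-0.17 to 0.065), CASC15 (-0.11 to 0.076), NORAD (-0.024 to 0.076), KCNQ1OT1 (-0.19 to 0.22) and MIR17HG (-0.053 to 0.30). The ranges continued with MIR22HG (-0.048 to 0.35), RMRP (-0.049 to 0.0051), FBL (-0.054 to 0.13), COIL (-0.022 to 0.12), MAGOHB (-0.16 to 0.0086), RRN3 (-0.089 to 0.15), TH (-0.15 to 0.14), S100B (-0.21 to 0.14) and SMUG1 (-0.0083 to 0.079).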
